A study of Mus musculus with 15 samples.

Results

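Carbonic anhydrases are zinc enzymes that interconvert CO2 and bicarbonate, and 10 of their genes (Car2, Car3, Car4, Car5b, Car6, Car8, Car9, Car11, Car12 and Car13) were followed across 15 RNA-seq libraries of mouse brown preadipocytes. They are 10 of the 16 genes named Car and a number among 29069 gene symbols in the deposited table. The members have 63 transcript rows in all, and each is represented by its row with the highest mean over the 15 libraries, so the rows were chosen by their measured overall level, which is not a finding. Of the 10, 7 passed the filter for testing (at least 0.5 RPKM, read density scaled to transcript length and library size, in at least 3 libraries), while Car2, Car3 and Car4 did not. Car8 passed only through the 3 libraries with Bay-876.

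The cells came from the stromal-vascular fraction of interscapular brown fat of 129SvEv mice and were immortalised with SV40 large T antigen, which all groups carry. Groups of 3 libraries each had no agent (control), Fgf1, Fgf8b, FGF9 with heparin, or Fgf8b with Bay-876, a compound that blocks glucose uptake through GLUT1. According to the series' design text the factors were given at 5.56 nM for 48 h with 1 µg/ml heparin, and Bay-876 at 2 µM. The sample labels name heparin for FGF9 only, and no library analysed here had heparin or Bay-876 alone, so the effect of a factor and of heparin cannot be told apart, and that of Bay-876 was seen only on top of Fgf8b. Separate cultures are not stated in the labels, and p-values therefore cover only the spread among these libraries, which may be technical.

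The libraries held 27.01 to 42.6 M reads as worked out from the values. Within groups, log2 levels correlated at 0.991 to 0.997. The preadipocyte markers Pdgfra, Pdgfrb, Cd34 and Ebf2 were present, and of 8 markers of mature fat cells 3 (Cfd, Lep and Pck1) were at 0 in all libraries. Another, Fabp4, had group means of 5.51 to 8.05 RPKM and rose by 0.43 in Fgf1 (limma adjusted p = 0.0117) and by 0.36 in Fgf8b (adjusted p = 0.0154). The summed level of 9 preadipocyte markers was highest in control, at 1653 to 1830 RPKM, and was 833 to 862 in the Fgf1 libraries. It was 388 to 446 RPKM in the Fgf8b libraries, 379.9 to 441 for FGF9, and lowest when Bay-876 was added, at 163 to 165. That sum was carried by Ly6a, at 1015 RPKM in control and 245 in Fgf1. Of the 9 markers, 2 were called higher, 4 lower and 3 not called in Fgf1, with a median log2 difference of -0.10. In Fgf8b 3 were higher (Pi16 by 2.27, Thy1 by 0.72, Ebf2 by 0.18) and 6 lower, with a median of -0.98. The 6 were Ly6a, Pdgfra, Pdgfrb, Cd34, Dlk1 and Dpp4. Ly6a stood at 52.7 RPKM in Fgf8b, and Pdgfra went from 276 RPKM in control to 39.9 in Fgf8b. With Bay-876 all 9 were called lower than in control. Against Fgf8b alone 7 were lower and 1 higher. Of all genes tested 34.4% passed in Fgf1 (19.3% higher, 15.1% lower) and 64.4% in Fgf8b (37.8% higher, 26.6% lower). For Bay-876 72.7% passed against control (36.8% higher, 35.9% lower) and 57.3% against Fgf8b alone (22.5% higher, 34.8% lower). The part of these markers in the results below was not tested. In bulk RNA, fewer cells of a type and less RNA per cell cannot be told apart.

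The members act in different places. Car2, Car3 and Car13 are cytosolic, Car5b is mitochondrial and supplies bicarbonate to pyruvate carboxylase, and Car4, Car9 and Car12 hold their catalytic domain outside the plasma membrane, where they handle the acid that glycolytic cells release. Car6 is the secreted enzyme of saliva, and Car8 and Car11 are related proteins that have lost enzymatic activity. Car9 is a classic target of the hypoxia-inducible factors (HIF), which bind DNA at a short core, ACGTG or GCGTG.

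The promoters of Car9, Car12 and Car6 are shown because Car9 and Car12 are both surface enzymes whose levels moved in opposite directions in Fgf1, and Car6 had the widest range. Each is the 300-base RefSeq window on build GRCm38.p6, from 250 bases before to 50 bases after the start, 5′ to 3′ on the gene's strand. Car9 lies at chr4:43506776-43507075 (plus strand), Car12 at chr9:66713436-66713735 (plus strand) and Car6 at chr4:150201086-150201385 (minus strand). Capitals mark the core on either strand, where the minus strand reads as CACGT or CACGC.
Car9: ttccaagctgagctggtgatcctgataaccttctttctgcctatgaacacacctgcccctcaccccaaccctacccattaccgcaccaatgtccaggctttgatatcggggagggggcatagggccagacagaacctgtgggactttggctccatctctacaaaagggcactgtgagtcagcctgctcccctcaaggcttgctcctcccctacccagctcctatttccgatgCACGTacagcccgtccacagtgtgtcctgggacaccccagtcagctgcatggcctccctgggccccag
Car12: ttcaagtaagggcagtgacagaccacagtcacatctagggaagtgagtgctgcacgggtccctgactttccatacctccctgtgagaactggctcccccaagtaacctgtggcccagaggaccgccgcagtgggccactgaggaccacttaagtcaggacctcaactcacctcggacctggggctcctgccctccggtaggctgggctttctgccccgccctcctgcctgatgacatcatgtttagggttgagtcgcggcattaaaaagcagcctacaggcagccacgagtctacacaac
Car6: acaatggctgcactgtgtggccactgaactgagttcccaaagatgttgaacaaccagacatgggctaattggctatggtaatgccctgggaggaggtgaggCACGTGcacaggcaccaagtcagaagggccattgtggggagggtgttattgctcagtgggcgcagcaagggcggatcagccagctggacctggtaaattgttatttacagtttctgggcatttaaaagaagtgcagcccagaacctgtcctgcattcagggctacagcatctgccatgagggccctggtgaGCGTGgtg
The Car9 window had 1 core, which begins at position -18 from the start. The Car12 window had none. The Car6 window had a CACGTG that reads as a core on both strands, at positions -149 and -148, and a further core at position 42, counting the first base of the transcript as 0. Car5b, which fell in Fgf8b and FGF9, had 5 cores in its window, Car4 had 1, and Car11 had 1 in each of its 2 windows. Of 32851 RefSeq promoter windows of the same length, 43.8% held at least 1 such core, so a match is a description and not a binding site. Of the 10 members 6 had a promoter entry, and a C/EBP-ATF element (TGATGNAAT, both strands), held by 0.965% of all windows, was in none of them. The only Car6 window is at the RefSeq start. An internal Car6 start, taken up below and 2862 bases from the distal one, was not searched, so the absence says nothing about it.

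Car6, at chr4:150187015-150201332 on the minus strand (GRCm38), was the member with the widest range of group means, 6.25 on the log2 scale. In control it stood at 0.630, 0.609 and 0.330 RPKM and in Fgf1 at 0.300, 0.713 and 0.280 RPKM. The Fgf8b libraries stood at 19.6, 13.1 and 10.9 RPKM, the FGF9 libraries at 17.3, 13.3 and 11.9, and those with Bay-876 at 69.6, 71.5 and 65.7. The control range overlapped that of Fgf1, the Fgf8b range overlapped that of FGF9, and the Bay-876 libraries lay above all others. On the log2(RPKM + 0.5) scale, which understates changes of low genes, Car6 rose by 3.85 ± 0.21 (SE) in Fgf8b over control (limma, Benjamini-Hochberg adjusted p = 1.86e-10) and by 3.84 ± 0.21 in FGF9 (adjusted p = 1.696e-10). With Bay-876 it rose by a further 2.25 ± 0.21 over Fgf8b alone (limma adjusted p = 2.11e-07). The Fgf1 difference was -0.15 (limma adjusted p = 0.619). In reads, 39 in the control group became 1007 in Fgf8b and 5448 with Bay-876, which gives ratios of levels of 28.2 (95% exact interval 20.51 to 39.95) for Fgf8b over control and 4.71 (4.41 to 5.05) for Bay-876 over Fgf8b. Such intervals cover counting error only.

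Car6 has annotated starts 2862 bases apart, and the reads differed between the rows that use them. In the mouse an internal-start Car6 transcript that lacks the secretion signal is known to be induced under stress by the transcription factor Ddit3 (CHOP). The table holds a distal-start transcript of 8 exons and 1567 bases, and an internal-start transcript of 7 exons and 1460 bases that begins inside the first intron. They share 1271 bases, while 296 bases belong to the distal row alone and 189 to the internal row alone. The internal row held 1, 0 and 0 reads more than the distal row in control and 0, 0 and 1 more in Fgf1. The excess was 19, 18 and 17 reads in Fgf8b and 18, 17 and 23 in FGF9, and it was highest with Bay-876, at 72, 73 and 90. As a share of the internal row's reads the excess was 1.56% in control and 1.79% in Fgf1, each from 1 read, and 3.21% for Fgf8b, 2.88% for FGF9 and 2.65% for Fgf8b with Bay-876. The size of the excess in reads moved with the Car6 level. Only 189 of the internal row's 1460 bases are its own, which keeps the share low whichever start was used. The excess is also a net value, since reads in the distal row's own 296 bases lower it. The share is thus no measure of how much either start was used. The first 197 bases of the distal transcript, which lie before the RefSeq start, added 0 reads in all 15 libraries. Most reads fell in shared exons and cannot be given to either start.

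**Figure D1:**
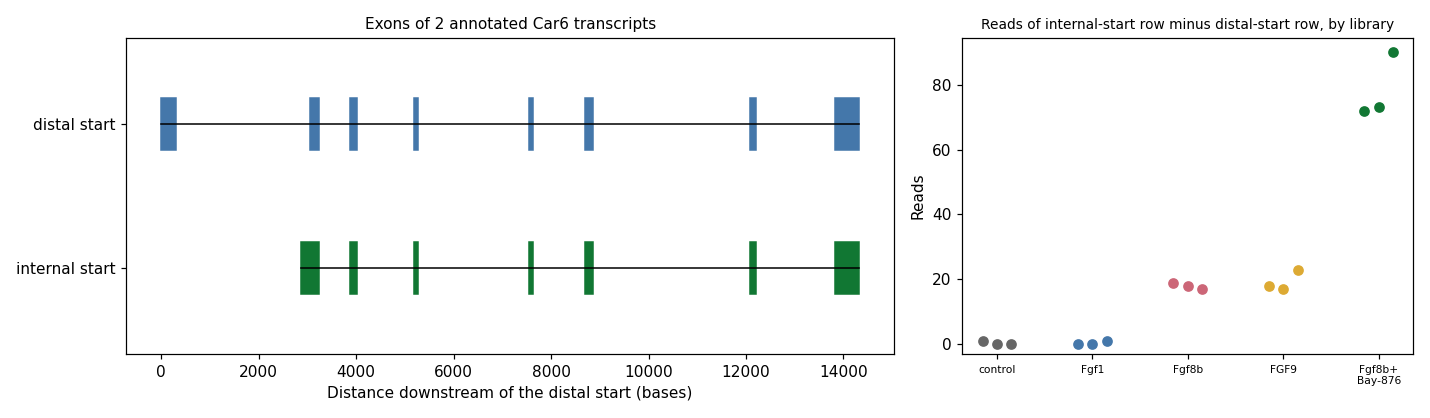
Left, exons (boxes) of the distal-start and internal-start Car6 transcripts by distance in bases from the distal start. Right, reads of the internal-start row minus the distal-start row, 1 point per library in each of the 5 groups. Control and Fgf1 lie at 0 or 1 read, Fgf8b and FGF9 at 17 to 23, and the Bay-876 libraries at 72 to 90.

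Ddit3, named after its values were seen, had 42.5 ± 1.91 RPKM (SD, n = 3) in control and 26.7 ± 1.12 in Fgf1. Its level was 192 ± 27.0 for Fgf8b, 200 ± 8.01 for FGF9 and 205 ± 7.83 RPKM once Bay-876 was added to Fgf8b. It rose by 2.16 on the log2 scale in Fgf8b (limma adjusted p = 1.64e-12). Between Fgf8b with and without Bay-876 Ddit3 differed by 0.10 (limma adjusted p = 0.271). The part of Ddit3 in the Car6 levels was not tested. Likeness over the 15 libraries was ranked among tested genes, leaving out predicted models (Gm and a number) and Rik names. The genes whose log2 levels ran most like Car6 were Tmem74 (Pearson r = 0.994), Tmem199 (0.993) and Noc2l (0.993). This is a description over libraries that share their groups. Tmem199 stood at 11.4, 10.03, 22.7, 24.6 and 38.5 RPKM in control, Fgf1, Fgf8b, FGF9 and Fgf8b with Bay-876.

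Car9, the transmembrane HIF target at chr4:43506966-43513729 on the plus strand (GRCm38), was the member that rose with all 3 factors. In control it stood at 0.0314, 0.0347 and 0.0875 RPKM, which is 1, 1 and 3 reads. The Fgf1 libraries stood at 2.19, 4.10 and 3.12 RPKM, the Fgf8b libraries at 1.86, 2.61 and 4.14, and the FGF9 libraries at 1.97, 2.95 and 3.29. Addition of Bay-876 to Fgf8b gave 0.889, 0.259 and 1.52 RPKM. The 3 factor groups overlapped one another, the control lay below them all, and the Bay-876 libraries lay between. Car9 rose by 2.69 ± 0.31 in Fgf1 (limma adjusted p = 5.02e-06), by 2.56 ± 0.31 in Fgf8b (adjusted p = 2.40e-06) and by 2.53 ± 0.31 in FGF9 (adjusted p = 2.49e-06). The mean of Fgf8b and FGF9 differed from Fgf1 by -0.14 (limma adjusted p = 0.655). With Bay-876 Car9 fell by 1.33 ± 0.31 against Fgf8b alone (limma adjusted p = 0.0016), and it stayed 1.22 above control (adjusted p = 0.00208).

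The size of the Car9 rise rests on few control reads and on the row used. The chosen row had 5 control reads against 249 in Fgf1, 58.5 times the control level (95% exact bounds 24.8 and 182). The RefSeq row had 16 control reads, and there the Fgf1 level was 32.1 times the control (19.5 to 56.7). The chosen row held 31.3% of the RefSeq row's reads in control and 53.6% to 59.2% in the other groups. An antisense gene, Gm12454, overlaps Car9, and the kit named in the labels does not mark strand, so reads of the pair cannot be told apart. The genes most like Car9 over the 15 libraries were Arhgef40 (r = 0.965), Edil3 (0.958) and Adcy7 (0.955). Adcy7, an adenylate cyclase, had 6.58, 17.9, 17.3, 17.8 and 11.1 RPKM in control, Fgf1, Fgf8b, FGF9 and Fgf8b with Bay-876.

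Car12, the other transmembrane enzyme, went the other way in Fgf1. It stood at 1.19, 0.882 and 0.724 RPKM in control and at 0.445, 0.227 and 0.392 in Fgf1. The Fgf8b libraries stood at 0.567, 0.609 and 0.601, the FGF9 libraries at 0.731, 0.573 and 0.730, and those with Bay-876 at 0.919, 0.643 and 0.797. The Fgf1 libraries lay below those of every other group. Car12 fell by 0.74 ± 0.13 in Fgf1 (limma adjusted p = 0.000346) and was 0.42 higher in the mean of Fgf8b and FGF9 than in Fgf1 (adjusted p = 0.00422). It fell by 0.38 in Fgf8b (limma adjusted p = 0.0190), but without control library 1 that difference was -0.25 (adjusted p = 0.108) and without Fgf8b library 1 it was -0.36 (adjusted p = 0.0519). The FGF9 difference was -0.27 (limma adjusted p = 0.0786; with the RefSeq row 0.0118, after trimmed-mean scaling 0.0401 and with a replicate block 0.0478). Car4, the lipid-anchored surface enzyme, had 0 to 2 reads in each library.

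Car8, a catalytically inactive relative that binds the inositol trisphosphate receptor, lies at chr4:8143362-8239041 on the minus strand (GRCm38) and was near 0 except with Bay-876. Control libraries had 3, 0 and 3 reads and each Fgf1 library 0. The Fgf8b libraries had 2, 6 and 3 reads, the FGF9 libraries 8, 14 and 12, and those with Bay-876 had 79, 82 and 92. The last group stood at 1.24, 1.604 and 1.25 RPKM, above every other library. The ratio of levels for Bay-876 over Fgf8b alone was 20.04 (95% exact interval 11.01 to 40.7). Since Car8 entered the tested set only through the Bay-876 libraries, that difference is a description and no test of it is given. Car8 was 0.32 ± 0.10 higher on the log2 scale in FGF9 than in control, a read ratio of 4.97 (2.06 to 14.5). No library of either group reached 0.5 RPKM, so that difference is a description too, without a test. The Fgf1 difference from control was -0.09, again a description, and control library 2 also had 0 reads. Small annotated genes, Gm11799 and Gm25355, overlap Car8, and reads in the overlap cannot be told apart. The genes most like Car8 were Clic5 (r = 0.991), Dusp5 (0.990) and Cxcr4 (0.987). Clic5 and Cxcr4, like Car8, reached 0.5 RPKM only with Bay-876. Their likeness to Car8 thus restates that group's level and is a description. Cxcr4, a chemokine receptor, had 0.0261 ± 0.00759 RPKM in control, 0.0635 ± 0.0244 in Fgf8b and 1.32 ± 0.153 with Bay-876 (SD, n = 3).

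Car13, the cytosolic enzyme with the highest level in control among the members, fell in Fgf8b and FGF9. It stood at 40.6, 40.8 and 40.3 RPKM in control and at 38.3, 38.4 and 36.8 in Fgf1. The Fgf8b libraries stood at 22.04, 24.9 and 22.5 RPKM, the FGF9 libraries at 21.6, 21.4 and 21.2, and those with Bay-876 at 24.7, 24.0 and 23.6. Control and Fgf1 lay above all libraries of the other 3 groups. Car13 fell by 0.80 ± 0.05 in Fgf8b (limma adjusted p = 1.57e-09) and by 0.91 ± 0.05 in FGF9 (adjusted p = 2.97e-10). The Fgf1 difference was -0.10 (limma adjusted p = 0.1499) and the Bay-876 difference from Fgf8b was 0.06 (adjusted p = 0.342), or 0.16 (adjusted p = 0.0278) after trimmed-mean scaling. Car2, a second cytosolic enzyme, was too low to test, with group totals of 34 reads (control), 25 (Fgf1), 44 (Fgf8b), 46 (FGF9) and 14 (Fgf8b with Bay-876). Its ratio of levels for Bay-876 over Fgf8b was 0.277 (95% exact interval 0.140 to 0.515), but the libraries, at 0.163, 0.0508 and 0.0705 RPKM against 0.410, 0.442 and 0.159, overlapped. Car3, abundant in mature fat cells and muscle, had 5 reads in control, 2 in Fgf1 and 0 in the 9 other libraries.

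Car5b, the mitochondrial enzyme, followed a similar order. It stood at 4.63, 4.63 and 5.05 RPKM in control and at 6.03, 4.87 and 5.67 in Fgf1. Fgf8b libraries had 3.04, 3.27 and 3.35 RPKM, FGF9 libraries 2.50, 2.72 and 2.83, and those with Bay-876 had 3.81, 3.79 and 3.53. Control and Fgf1 overlapped, and the other groups lay below both without overlapping one another. Car5b fell by 0.50 ± 0.08 in Fgf8b (limma adjusted p = 8.54e-05) and by 0.73 ± 0.08 in FGF9 (adjusted p = 1.67e-06). The mean of Fgf8b and FGF9 differed from Fgf1 by -0.80 (limma adjusted p = 1.06e-07). The Fgf1 difference from control was 0.19 (limma adjusted p = 0.103), and with the RefSeq row it was 0.23 (adjusted p = 0.0126). The difference between Bay-876 and Fgf8b was 0.18 (limma adjusted p = 0.0835), and it was 0.27 (adjusted p = 0.0131) after trimmed-mean scaling of the libraries.

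Car11, the second inactive relative, was highest in control. It stood at 3.20, 4.48 and 3.74 RPKM there and at 2.96, 2.31 and 2.59 in Fgf1. The Fgf8b libraries had 2.73, 1.78 and 2.15 RPKM, the FGF9 libraries 1.701, 2.999 and 2.05, and those with Bay-876 had 1.11, 1.72 and 1.93. Every control library lay above every treated one. Car11 fell by 0.67 ± 0.19 in Fgf8b (limma adjusted p = 0.00554), by 0.66 ± 0.19 in FGF9 (adjusted p = 0.00549) and by 1.06 with Bay-876 against control (adjusted p = 0.000102). The Fgf1 difference was -0.46 (limma adjusted p = 0.0705), and with the RefSeq row it was -0.33 (adjusted p = 0.0342). Bay-876 differed from Fgf8b alone by -0.39 (limma adjusted p = 0.0860), and with the RefSeq row by -0.28 (adjusted p = 0.0434).

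**Figure D2:**
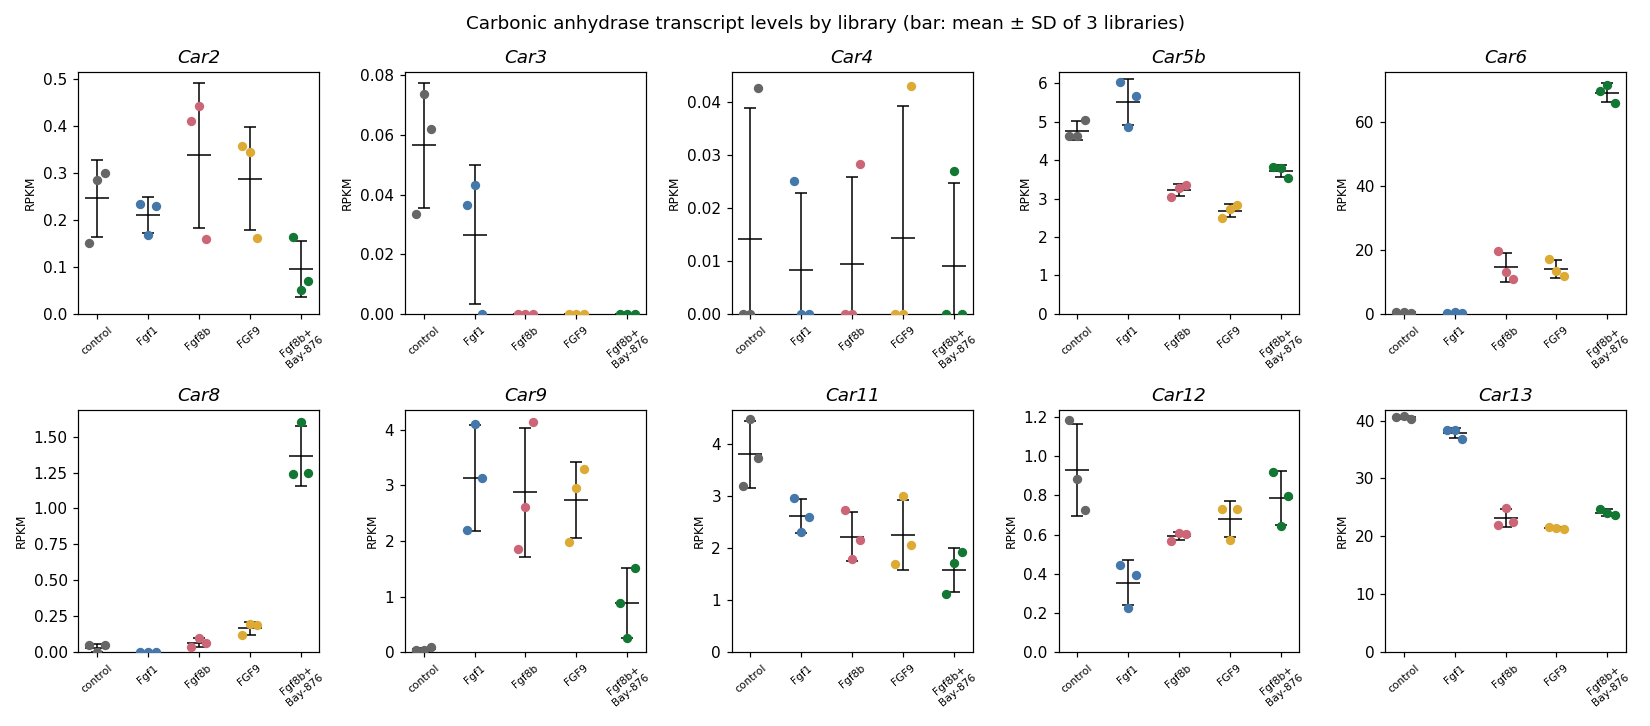
RPKM of the 10 members, 1 point per library in each of the 5 groups, with the mean and SD of 3 libraries as a bar; each panel has its own axis from 0. Car6 and Car8 are highest with Bay-876, and Car13 falls from about 40.6 RPKM in control to 21.4 in FGF9. Car9 lies near 0 in control, and Bay-876 library 2 is also low, at 0.259 RPKM.

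Counted together, 1 of the 7 tested members rose and 1 fell in Fgf1, where 34.4% of all 13867 genes tested passed, 19.3% as higher and 15.1% as lower. In Fgf8b 2 rose and 4 fell, beside 64.4% of all genes (37.8% higher, 26.6% lower). In FGF9 3 rose and 3 fell, beside 65.7% (38.7% higher, 27.0% lower). With Bay-876 2 rose and 1 fell against Fgf8b alone, beside 57.3% (22.5% higher, 34.8% lower), and 3 rose and 3 fell against control, beside 72.7% (36.8% higher, 35.9% lower). The mean of Fgf8b and FGF9 was higher than Fgf1 for 3 members and lower for 2, beside 65.6% (36.8% higher, 28.9% lower). Car8 is among those higher in FGF9, in both Bay-876 comparisons and in this mean. Because Car8 was let into the test by the Bay-876 libraries, it lends those counts no support. With so large a share of all genes passing, the members' counts show nothing particular to the family, and the comparisons share control libraries. Medians of the 7 tested members include Car8 too and are descriptions only. The members' median log2 change was -0.10 in Fgf1, -0.38 in Fgf8b and -0.27 in FGF9, beside 0.02, 0.08 and 0.09 for all genes. For Bay-876 over Fgf8b it was 0.18, beside -0.08. In that comparison 3116 genes of all tested were higher and 4824 lower, and after trimmed-mean scaling 4069 were higher and 3830 lower.

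**Figure D3:**
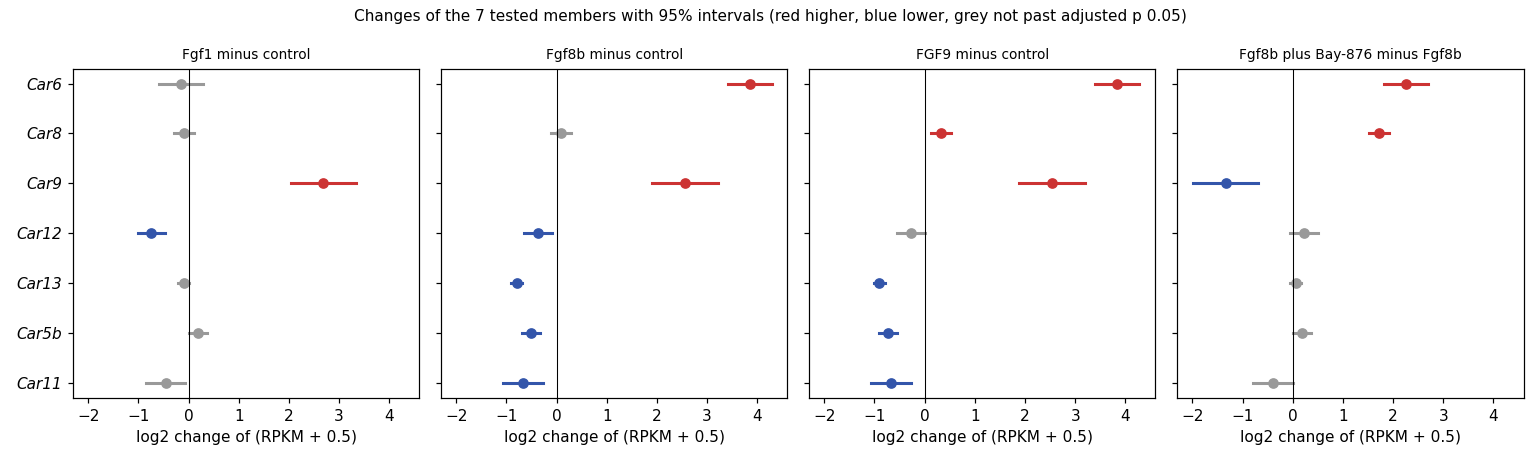
Change in log2(RPKM + 0.5) of the 7 tested members in 4 comparisons, with limma's 95% intervals; red is higher, blue lower and grey not past an adjusted p of 0.05. Car9 is higher with each factor, Car6 with Fgf8b and FGF9, and Car6 and Car8 are higher with Bay-876 than with Fgf8b alone, as are Car5b and Car13 after trimmed-mean scaling, which is not drawn. Car8 was let into the test only by the Bay-876 libraries, so all its points are descriptions.

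No member passed the test between Fgf8b and FGF9. By limma 0 of the 7 passed between them, where 0.296% of all genes passed (0.202% higher, 0.0937% lower). Of the 7, 2 had an unadjusted p under 0.05, and limma's voom on the recovered reads also called 0. The difference of FGF9 from Fgf8b was -0.012 for Car6 (95% interval -0.45 to 0.43), -0.025 for Car9 (-0.68 to 0.63) and -0.11 for Car13 (-0.22 to 0.00014). The 2 with an unadjusted p under 0.05 were Car5b, at -0.23 (-0.41 to -0.044), and Car8, at 0.24 (0.029 to 0.44). Car8 lay under 0.5 RPKM in every library of both groups, so its difference is a description.

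Genes that work beside carbonic anhydrases were read from the same fit. Of 22 HIF targets (Car9 not among them), 19 rose and 1 fell in Fgf1, 16 rose and 1 fell in Fgf8b, and 16 rose and 4 fell in FGF9. Of all genes tested 34.4%, 64.4% and 65.7% passed in these comparisons. The list's median change was 1.24 in Fgf1, 1.24 in Fgf8b and 1.09 in FGF9, beside 0.02, 0.08 and 0.09 over all genes. In Fgf1 the largest were Ndufa4l2, a mitochondrial protein (2.89), Bnip3, a mitophagy receptor (1.87), and Egln3, an oxygen-sensing hydroxylase (1.80). In Fgf8b they were Ero1l, an endoplasmic reticulum oxidase (2.41), Adm, the peptide adrenomedullin, which fell by 2.40, and Egln3 (2.38). With Bay-876 over Fgf8b alone, 8 rose and 7 fell, beside 57.3% of all genes, with a median of 0.15 beside -0.08. Adm fell by 1.36, Ndufa4l2 fell by 1.33, as Car9 did, and Slc2a1, which encodes GLUT1, rose by 0.92.

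Of 15 proton and lactate carriers 10 were tested. In Fgf1 2 rose and 2 fell, in Fgf8b and in FGF9 3 rose and 4 fell, and with Bay-876 over Fgf8b 1 rose and 4 fell. All genes tested passed at 34.4%, 64.4%, 65.7% and 57.3% in these 4 comparisons, so the counts show nothing particular to these carriers. The lactate exporter Slc16a3 rose by 2.87 in Fgf1 and by 2.28 in Fgf8b, and the proton channel Hvcn1 fell by 1.24 and 0.98. Emb, a chaperone of lactate carriers, fell by 2.55 in Fgf8b, from 295 ± 20.9 to 49.9 ± 2.17 RPKM (SD, n = 3), and its partner in that role, Bsg, fell by 0.70 with Bay-876.

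Of 12 bicarbonate transporters 6 were tested, and 2 rose in each factor group while 1 fell in Fgf1, 2 in Fgf8b and 1 in FGF9. With Bay-876 over Fgf8b, 2 rose and 1 fell, and the shares of all genes that passed are those given for the carriers. The sodium-bicarbonate cotransporter Slc4a4 fell by 0.93 in Fgf1, 1.47 in Fgf8b and 1.45 in FGF9, and its level was 5.87 ± 0.508 RPKM in control and 1.79 ± 0.0975 in Fgf8b. Of 9 enzymes that use bicarbonate 8 were tested, and 1 rose and 4 fell in Fgf1, 2 rose and 4 fell in Fgf8b, 2 rose and 5 fell in FGF9, and 4 rose and 3 fell with Bay-876 over Fgf8b. Those counts stand beside 34.4%, 64.4%, 65.7% and 57.3% of all genes tested. Pyruvate carboxylase, Pcx, had 5.10, 3.40, 2.19, 2.13 and 4.10 RPKM in control, Fgf1, Fgf8b, FGF9 and Fgf8b with Bay-876. It fell by 1.06 in Fgf8b and rose by 0.78 with Bay-876 over Fgf8b.

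**Figure D4:**
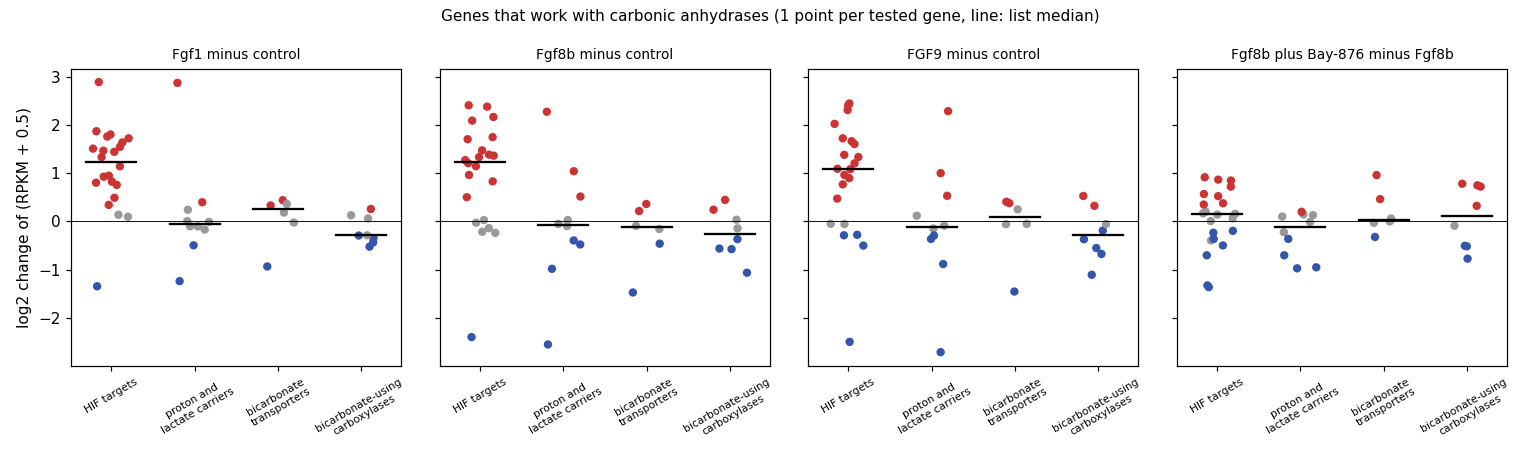
Change in log2(RPKM + 0.5) of the tested genes of 4 lists in 4 comparisons, 1 point per gene, with the list median as a line; red is higher, blue lower and grey not past an adjusted p of 0.05. The HIF targets have medians of 1.24, 1.24 and 1.09 in the 3 factor groups and 0.15 for Bay-876 over Fgf8b, while the other lists hold genes on both sides of 0.

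Of the 6 further carbonic anhydrase genes in the table only Car14, a transmembrane enzyme, was tested. It had 1.95 ± 0.173 RPKM in control (SD, n = 3) and fell by 0.31 in Fgf8b (limma adjusted p = 0.0196) and by 0.37 in FGF9 (adjusted p = 0.00675). Over all 15 libraries Car1 was listed at 0, and Car10 had 1 read, Car5a 12, Car15 120 and Car7 128.

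Markers of cell types that are known for carbonic anhydrases were read beside the Bay-876 result. Of 6 macrophage and osteoclast markers 5 were in the table, and their summed level reached 139 to 154 RPKM in the Bay-876 libraries. The other ranges were 39.9 to 47.5 RPKM (control), 21.0 to 25.2 (Fgf1), 33.4 to 38.3 (Fgf8b) and 34.7 to 38.4 (FGF9). That sum was mostly the protease Ctsk, at 142 RPKM with Bay-876 and 33.0 in Fgf8b, while the defining leukocyte marker Ptprc was at or near 0 in every group. Acp5, the osteoclast phosphatase, went the other way, at 5.43 RPKM in control, 1.94 in Fgf8b and 1.08 with Bay-876. Csf1r had 0.972 RPKM in Fgf8b and 1.28 with Bay-876, and Cd68 had 0.625 and 0.861. Of the 4 markers tested, 2 (Ctsk and Csf1r) were called higher and 1 (Acp5) lower with Bay-876 over Fgf8b, beside 57.3% of all genes. The part of these markers in the higher Car6 and Car8 levels was not tested. The 6 erythroid markers summed to at most 0.392 RPKM in any library, with Hbb-bs and Hbb-bt at 0. The 8 skeletal muscle markers summed to 4.17 to 9.75 RPKM with Myod1 at 0, and the 6 neural and glial markers to 0.957 to 2.10 RPKM. The 6 endothelial markers summed to 5.87 to 7.15 RPKM in control, mostly Kdr at 6.18. Their sum was at most 0.854 RPKM in Fgf1 and 0.236 in FGF9. It was 0.0664 to 0.260 RPKM in Fgf8b and 1.601 to 1.67 with Bay-876. Kdr was called higher with Bay-876 than with Fgf8b alone, beside 57.3% of all genes. Its means were 0.028 RPKM in Fgf8b and 0.421 with Bay-876, both under 0.5 RPKM, so that difference is a description. Vwf, at 0.0117 RPKM in Fgf8b and 1.11 with Bay-876, was tested only through the Bay-876 libraries, so its rise is a description. The part of endothelial markers in the Car6 and Car8 levels was not tested.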

How the data were processed

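Total RNA was sequenced from 15 libraries, and the authors deposited 1 table of 168326 transcript rows with 15 value columns, each of which matched a sample's name. The unit is not named. The deposited values, written with a decimal comma, were taken to be RPKM: multiplied by transcript length, 94.5% to 95.3% of the low ones fell on whole reads (tolerance 0.05). Per the submitters' processing notes CASAVA and bcl2fastq were used; no aligner, build or annotation is given in the sources used here. Rows without a symbol (23178) were left out, which was decided after the table was seen.

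1 row per symbol, that with the highest mean, was kept. limma 3.58.1 (R 4.3.3) was fitted with a mean-variance trend to log2(RPKM + 0.5) over all 15 libraries, for the 13867 genes that reached 0.5 RPKM in 3 or more libraries, with Benjamini-Hochberg adjustment over all of them and a threshold of 0.05. The fit was tested on simulated data. Read numbers were recovered as whole for 100% of tested genes (tolerance 0.02), with the transcript length fitted as well. The fitted length equalled the annotated one in 90.8% of 3475 Ensembl rows. Ratios of levels carry exact binomial 95% intervals. Replicate numbers were not used as a block. Gene coordinates of exons are from GENCODE on GRCm38 and promoters from RefSeq on GRCm38.p6. Named genes were all members, the 3 genes most like each of the 3 most variable members, and up to 3 called genes per list and comparison. Predicted models (Gm and a number) and Rik names were left out of the likeness ranking. Members and lists were chosen with earlier results of these data known. Alternatives were another pseudocount, no filter, trimmed-mean scaling, RefSeq rows, voom on recovered reads, a replicate block, fits of the compared groups alone and leaving out each library.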

Additional observations from a re-analysis of the deposited data

How the results depend on the processing

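Under the alternatives, 671 repeats of a member's change kept direction and side of the threshold, 15 came past it, 2 fell short (Car12 in Fgf8b, in the report) and 12, none past the threshold, turned. Members called in Fgf1 numbered 4 with RefSeq rows instead of 2, and with Bay-876 over Fgf8b 5 after trimmed-mean scaling instead of 3. For FGF9 against Fgf8b, 41 genes became 27 with a pseudocount of 0.1, 70 with RefSeq rows, 62 with voom, 1 with only those groups fitted, and 6 to 35 without 1 library. The direction of uncalled differences turned for Car6 in Fgf1 with RefSeq rows (0.023), for Car9 between the mean of Fgf8b and FGF9 and Fgf1 without 1 library (-0.34 to 0.043), and, for FGF9 against Fgf8b, for Car11 after trimmed-mean scaling (-0.0069), for Car12 with RefSeq rows (-0.018) and, without 1 library, for Car6 (-0.19 to 0.22), Car9 (-0.25 to 0.23) and Car11 (-0.18 to 0.15). The cause was not tested. Same-numbered libraries deviated together (correlation above 0.1) in 11 of 30 pairs, with correlations from -0.443 to 0.534. Differently numbered pairs were not compared, so a shared batch is neither shown nor excluded. With a replicate block 30 genes were called between FGF9 and Fgf8b, fewer than without it. Every other comparison called more, such as 9015 instead of 8930 for Fgf8b over control. Car12 passed in FGF9 over control with the block (limma adjusted p = 0.0478). Car8's RefSeq row, at 0.416, 0.496 and 0.406 RPKM with Bay-876, stayed under 0.5 RPKM and was not tested. Of the list counts, 952 stayed within 1.5 times and 58 did not. Depth limits Car2, Car3, Car4, the low groups of Car8 and the control level of Car9.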
